A study of Mus musculus with 6 samples.

Results

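The proteasome genes described here are the 50 rows, of 31265 in the deposited gene table, whose symbol begins with Psma, Psmb, Psmc, Psmd, Psme, Psmf or Psmg and a digit. The 4 rows of the same family with -ps in the symbol, which marks a pseudogene, were left out. The 50 genes code for 7 alpha and 7 beta subunits of the constitutive core particle, 3 interferon-inducible beta subunits, 6 ATPases and 3 other subunits of the base, 8 lid subunits, 6 activators and inhibitors of the core, 7 assembly factors, 1 testis subunit and 1 thymus subunit. The last row, Psmc3ip, is named for an interaction with an ATPase subunit but codes for a protein of meiotic recombination, and its values are given apart.

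The oxidized group is the 10% of live cells with the most oxidized nuclear glutathione sensor, and the reduced group is the 10% with the most reduced one. Both were sorted at day 5 from embryoid bodies of 3 populations (A, B and C) of the mouse embryonic stem cell line E14Tg2a, wild type by label, which gave 3 libraries a group. All cells of both groups carried the Grx1-roGFP2 redox sensor in the nucleus and had been moved from medium with LIF and 2i inhibitors to medium without them to form embryoid bodies in hanging drops. Each library is poly(A) RNA of a sorted mixture of cells, so fewer cells of a type and less RNA per cell cannot be told apart. The design text calls the cells clonal but does not state what sets the populations apart, so p-values measure the spread between them, which may be technical in part. Where a gene is given 3 values a group, these stand for populations A, B and C in that order.

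The proteasome is the protease that takes apart proteins tagged with ubiquitin. Its core particle is a barrel of alpha and beta rings with the proteolytic sites on 3 of the beta subunits, and its regulatory particle recognises, unfolds and feeds in substrates. Cells exposed to interferon replace the 3 catalytic subunits with inducible ones, which changes the peptides made for presentation on MHC class I molecules. Oxidized proteins are among the substrates of the core particle, and the transcription factors NFE2L1 and NFE2L2 raise proteasome genes when the protease is inhibited or when cells meet oxidants.

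No proteasome gene passed the test between oxidized and reduced cells. The unit FPKM counts fragments relative to transcript length and library total. Genes that averaged 1 FPKM or more were tested with limma, two-sided, on the log2(FPKM + 1) scale, and were called where the p adjusted by Benjamini-Hochberg was under 0.05. Of the 50 genes 49 were tested and 0 were called, where 0.796% of all 12191 genes tested were called, 0.517% higher and 0.279% lower. An unadjusted p under 0.05 was found for 8 of the 49, or 16.3%, against 19.4% of all genes. Of these 8, 5 were higher in oxidized cells, where 13.5% of all genes were, and 3 lower, where 5.93% were. Differences on this scale, oxidized minus reduced, ran from -0.71 for Psmb8 to 1.02 for Psmb4, with a median of -0.06 over the 49 genes and 0.08 over all genes. They were positive for 22 genes, where 59.3% of all genes were positive, and negative for 27, a split of 16 and 33 with median-ratio scaling of the libraries. The 3 oxidized libraries lay entirely above the 3 reduced ones for 4 genes, or 8.16%, against 16.2% of all genes, and entirely below them for 7 genes, or 14.3%, against 8.81%.

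**Figure D1:**
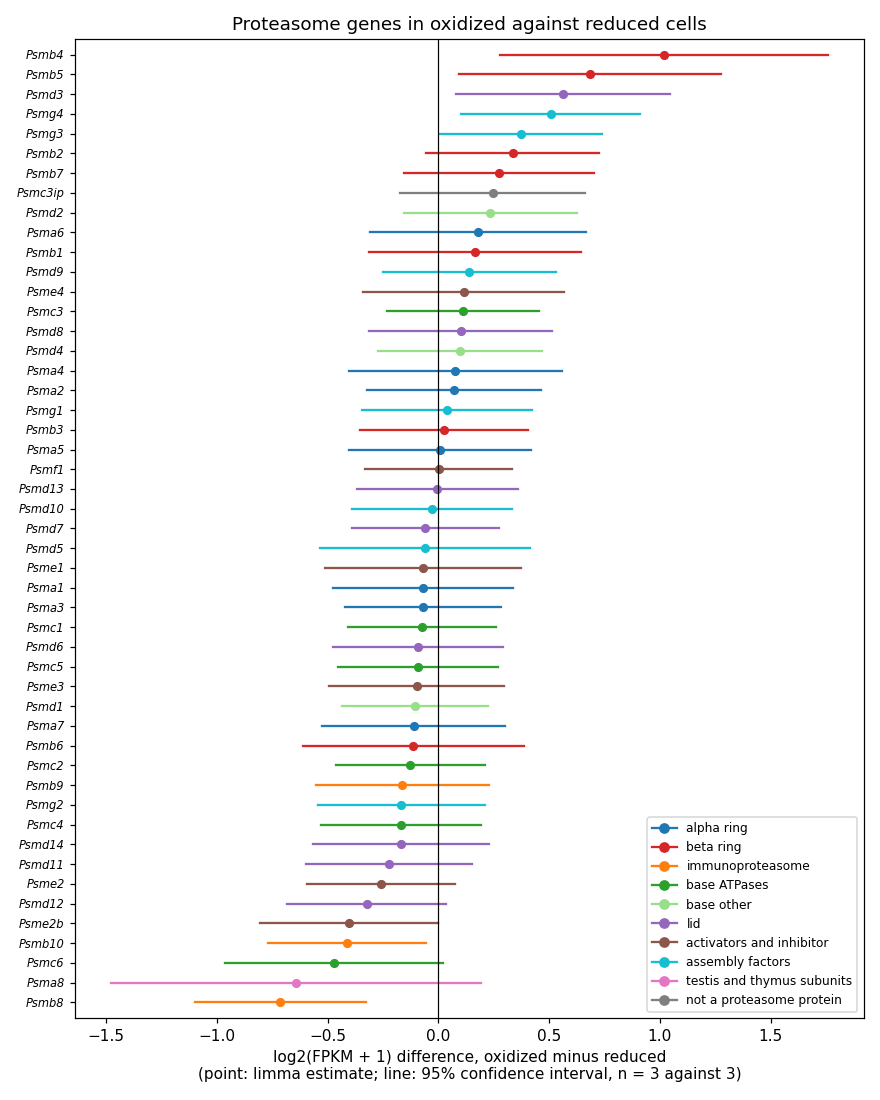
Difference of each of the 49 tested proteasome genes on the log2(FPKM + 1) scale, oxidized minus reduced, as the limma estimate with its 95% confidence interval (n = 3 against 3), coloured by part of the proteasome. The estimates run from -0.71 for Psmb8 to 1.02 for Psmb4, and Psmb8 and Psmb10 lie near the lower end.

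The 3 libraries of a group did not behave alike. Oxidized A and B held 1410 and 1736 FPKM at one of the rows named CT010467, a ribosomal RNA locus, against 34116 to 43825 FPKM in oxidized C and the reduced libraries, and the mitochondrial transcript mt-Co3 stood at 2710 and 1525 FPKM there, against 112 to 199 FPKM elsewhere. The estimated depth was 15800000, 15200000 and 11800000 fragments in oxidized A, B and C, and 17900000, 17000000 and 12500000 in reduced A, B and C. Values are therefore given by library. The fits without oxidized C and without oxidized A and B are given for the proteasome genes whose call they change. Both oxidized A and B lay above the other 4 libraries for 8 proteasome genes, or 16.3%, against 22.0% of all genes, and both below them for Psmb8 and Psmd12, or 4.08%, against 8.27%. Without oxidized C, which leaves the libraries that stand apart as the whole oxidized group, 7.25% of all genes were called higher and 2.47% lower. In that fit 2 proteasome genes were called higher, Psmb4 and Psmb5, and 1 lower, Psmb8. Without oxidized A and B together no proteasome gene was called. The epiblast and stem cell markers Pou5f1, Sox2, Nanog, Utf1, Lin28a and Dnmt3b were all expressed and summed to 232 to 613 FPKM among oxidized and 460 to 576 FPKM among reduced libraries, with oxidized C the lowest of the 6. Pou5f1 was lower in all 3 oxidized libraries, at 73.0 to 151 FPKM, against 168 to 199 FPKM in the reduced libraries (log2 difference -0.68, adjusted p = 0.209), while Nanog was higher in oxidized A and B and lower in oxidized C than in any reduced library.

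The interferon-inducible catalytic subunits were lower in oxidized cells in each population. Psmb8, which takes the place of the chymotrypsin-like subunit, had 14.8, 11.8 and 15.8 FPKM across the oxidized libraries, against 25.7, 20.7 and 24.7 FPKM across the reduced libraries. No oxidized library reached the lowest reduced one. Psmb8 averaged 14.1 ± 2.10 FPKM among oxidized and 23.7 ± 2.64 FPKM among reduced cells (SD, n = 3 each), 0.595 times the reduced mean. The log2 difference of Psmb8 was -0.71 (SE 0.17, 95% interval -1.10 to -0.33), the smallest p of the 49 genes, and did not pass (adjusted p = 0.0979). It was -0.80 without oxidized C (adjusted p = 0.0301), the only one of the settings tried in which Psmb8 was called, and -0.55 without oxidized A and B (adjusted p = 0.371).

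Psmb10, which replaces the trypsin-like subunit, had 42.9, 36.5 and 36.7 FPKM across the oxidized libraries, against 57.1, 45.8 and 52.9 FPKM across the reduced libraries. Its groups did not overlap either, with means of 38.7 ± 3.63 FPKM among oxidized and 51.9 ± 5.72 FPKM among reduced cells (SD, n = 3 each, log2 difference -0.41, adjusted p = 0.206). Psmb9, which replaces the caspase-like subunit, was scarce. It had 3.78, 3.61 and 3.0 FPKM across the oxidized libraries, against 4.46, 4.30 and 3.27 FPKM across the reduced libraries, and these ranges overlapped (log2 difference -0.16, adjusted p = 0.624). Within populations, 9 of the 9 differences of the 3 inducible subunits were below 0. Their medians were -0.40, -0.32 and -0.51 on the log2(FPKM + 1) scale in A, B and C. The 9 values are not independent, since the 3 genes share libraries. A negative sign in A, B and C was also not particular to the inducible subunits. It was found for 14 proteasome genes, or 28.6% of those tested, with Psma7, Psmb6 and Psmc4 among them. A positive sign in A, B and C was found for 7, or 14.3%.

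Psmb8 (chr17:34197721-34201454, GRCm38) and Psmb9 (chr17:34181987-34187764) lie side by side with the peptide transporter genes Tap1 and Tap2 in the MHC region. Psmb9 and Tap1 are transcribed in opposite directions and their annotated starts overlap. The libraries were stranded, but no source used here states that strand was used in counting, so their values may share fragments. Tap1 had 3.59, 4.67 and 3.62 FPKM across the oxidized libraries, against 4.70, 3.76 and 5.41 FPKM across the reduced libraries, and the groups overlapped (log2 difference -0.18, adjusted p = 0.612). Psmb10 lies elsewhere, at chr8:105935735-105938444.

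Leukocytes make the inducible subunits without interferon, so their markers were read beside these values. The defining leukocyte marker Ptprc was listed at 0 in all 6 libraries, and 6 of the 9 blood and immune markers stayed under 1 FPKM in every library. Their summed level was 60.4 to 588 FPKM among oxidized and 27.8 to 596 FPKM among reduced libraries. Most of it came from the embryonic globin genes Hbb-bh1 and Hba-x in population C, in both groups.

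**Figure D2:**
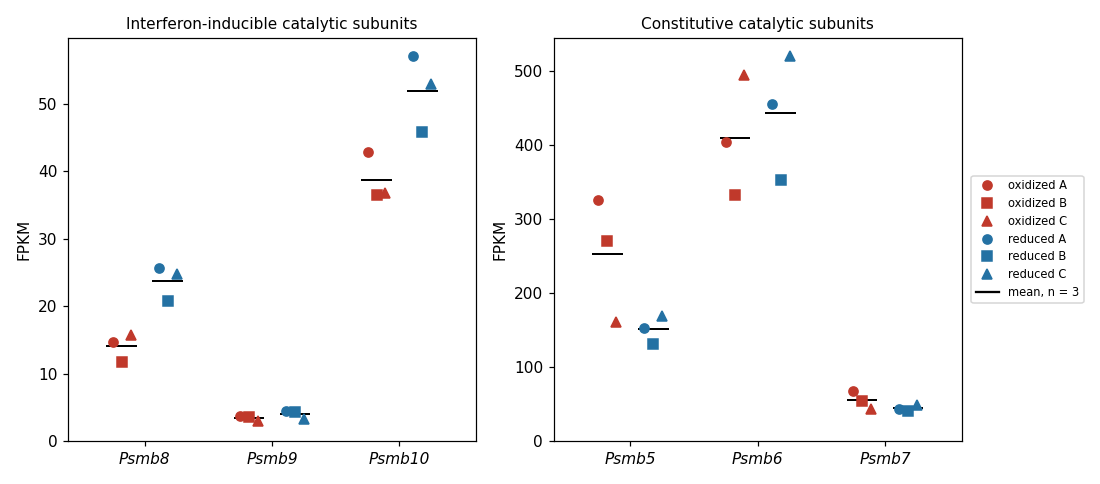
FPKM of the inducible catalytic subunits (left) and the constitutive ones they replace (right) in each library, with the mean of each group as a bar. Psmb8 and Psmb10 lie lower in all 3 oxidized libraries, and Psmb5 lies high in oxidized A and B but at 161 FPKM, within the reduced range, in oxidized C.

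Of the constitutive counterparts, Psmb6 was also lower in the oxidized library of each population, and Psmb5 and Psmb7 were not. Psmb5, the chymotrypsin-like subunit, had 326, 271 and 161 FPKM across the oxidized libraries, against 153, 131 and 169 FPKM across the reduced libraries. Oxidized A and B were the highest of the 6 libraries and oxidized C lay within the reduced range. The log2 difference of Psmb5 was 0.68 (SE 0.26, adjusted p = 0.205), with 0.98 without oxidized C (adjusted p = 0.0142) and 0.10 without oxidized A and B (adjusted p = 0.892). Psmb6, the caspase-like subunit and the most abundant gene of the 50, had 403, 332 and 494 FPKM across the oxidized libraries, against 455, 353 and 520 FPKM across the reduced libraries. Its groups overlapped. The log2 difference of Psmb6 was -0.11 (95% interval -0.61 to 0.38), with -0.17, -0.09 and -0.07 in A, B and C, and that of its inducible counterpart Psmb9 was -0.16. Psmb7, the trypsin-like subunit, had 67.8, 54.1 and 43.8 FPKM across the oxidized libraries, against 44.2, 41.5 and 49.1 FPKM across the reduced libraries (log2 difference 0.27, adjusted p = 0.445).

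Set against its counterpart within a library, Psmb8 stood at 4.53%, 4.35% and 9.82% of the Psmb5 level across the oxidized libraries, against 16.8%, 15.8% and 14.6% across the reduced libraries. Psmb10 stood at 63.3%, 67.5% and 83.8% of the Psmb7 level across the oxidized libraries, against 129%, 110.4% and 107.8% across the reduced libraries. Neither pair overlapped between groups. Psmb9 stood at 0.936%, 1.09% and 0.607% of Psmb6 across the oxidized libraries, against 0.980%, 1.22% and 0.629% across the reduced libraries, and these ranges overlapped. These shares compare levels per length and were not tested.

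The level of Psmb5 (chr14:54614119-54618022) is uncertain, because 54.1% of the 50-base stretches of its transcripts occur in other genes, mainly in the processed pseudogene Gm3375. That row held 337, 261 and 155 FPKM across the oxidized libraries, against 149, 130.5 and 183 FPKM across the reduced libraries. It followed Psmb5 from library to library, so the pattern of oxidized A and B is in both rows. Psma3, an alpha ring subunit, shares 15.4% of its stretches, mainly with the pseudogene Gm13835, which was listed at 277 to 362 FPKM, above Psma3 itself at 76.1 to 96.3 FPKM. Over the 50 genes, 9 share more than 10% of their stretches with another gene and 24 share none, among them Psmb4, Psmb10 and Psmb2.

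**Figure D3:**
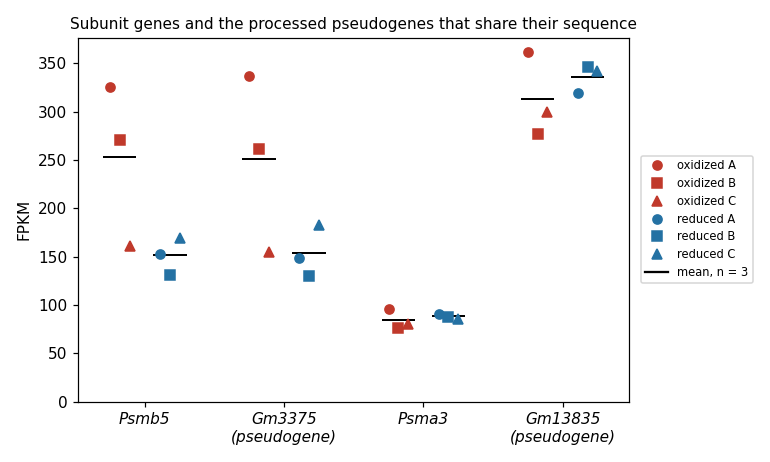
FPKM of Psmb5 and Psma3 beside the processed pseudogenes with which they share sequence, by library, with group means as bars. Gm3375 lies close to Psmb5 in every library, and Gm13835 lies at 277 to 362 FPKM against 76.1 to 96.3 FPKM for Psma3.

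Among the structural beta subunits, Psmb4 (chr3:94884093-94886961), which closes the beta ring, had the largest positive difference of the 49 genes. It had 175, 137 and 66.2 FPKM across the oxidized libraries, against 58.6, 48.6 and 65.2 FPKM across the reduced libraries. Oxidized C exceeded the highest reduced library by a small margin, while oxidized A and B were each more than 2 times every other library, a pattern held by 1.07% of all genes and by Psmb4 alone of the 49. Psmb4 averaged 126 ± 55.0 FPKM among oxidized and 57.5 ± 8.39 FPKM among reduced cells (SD, n = 3 each, log2 difference 1.02, SE 0.33, adjusted p = 0.154). Without oxidized C the log2 difference of Psmb4 was 1.42 (adjusted p = 0.00398), and without oxidized A and B it was 0.21 (adjusted p = 0.759). The same pair of libraries is set apart by a low ribosomal RNA locus and a high mt-Co3. The part of these differences in the Psmb4 result was not tested.

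Psmb2 was at 312, 291 and 277 FPKM across the oxidized libraries, against 224, 205 and 273 FPKM across the reduced libraries, without overlap (log2 difference 0.33, adjusted p = 0.317). Within populations its log2 difference was 0.48 and 0.50 in A and B and 0.02 in C. Psmb3 and Psmb1 had log2 differences of 0.03 and 0.17. The beta ring genes summed to 1539, 1272 and 1240 FPKM across the oxidized libraries, against 1134, 965 and 1298 FPKM across the reduced libraries. Set against the reduced library of the same population, the oxidized sum was 1.36 times as large in A, 1.32 times in B and 0.955 times in C.

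The authors' deposited table, which holds a test of their own, gives a q-value under 0.05 to 2 of the 50 genes, where 2.76% of all its rows have one. In the authors' deposited table these are Psmb8, at a fold of 0.595 and a q of 0.0101, and Psmb4, at a fold of 2.19 and a q of 0.0270. Of the 2, the authors' deposited table marks Psmb4 as significant and Psmb8 as not. No other proteasome gene in the authors' deposited table has a q under that of Psmb10, 0.137.

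Promoter sequence was set beside these values for the 42 of the 50 genes found in the RefSeq promoter table (GRCm38.p6), over the 250 bases before the annotated start. The antioxidant response element core TGACNNNGC, the motif of NFE2L1 and NFE2L2 with small MAF partners, was found on either strand in 5 of the 42 genes, or 11.9%, against 11.5% of all 27025 genes in that table. The 5 were Psmb5, Psmb6, Psmc6, Psmd12 and Psmd9. The CCAAT box was found in 15, or 35.7%, against 37.5%. A gamma-activated site, TTCNNNGAA, was found in Psmb8 and Psmg1 only, 4.76% of the 42 against 8.13% of all genes, and an interferon-stimulated response element (GAAA, any 2 bases, GAAA) in Psmb3, Psmd4 and Psmd9, 7.14% against 3.46%. The stretches given here, 5′ to 3′ on the gene's strand and ending before the first annotated exon base, are the 150 bases before 4 genes, and no motif match in them overlaps another. Psmb5 and Psmb6 are catalytic subunits with the antioxidant response element core in capitals. Psmb4 had the largest positive difference, and Psmb10 is the inducible catalytic subunit that lies outside the MHC region. Psmb4 and Psmb10 hold none of the 4 motifs.
Psmb5 (chr14:54618023-54618172, minus strand): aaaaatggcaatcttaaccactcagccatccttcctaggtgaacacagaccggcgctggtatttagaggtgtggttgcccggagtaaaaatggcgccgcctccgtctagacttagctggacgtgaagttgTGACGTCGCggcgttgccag
Psmb6 (chr11:70525207-70525356, plus strand): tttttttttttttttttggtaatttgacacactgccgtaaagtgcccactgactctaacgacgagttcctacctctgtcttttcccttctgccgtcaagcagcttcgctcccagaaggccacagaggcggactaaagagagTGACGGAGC
Psmb4 (chr3:94886962-94887111, minus strand): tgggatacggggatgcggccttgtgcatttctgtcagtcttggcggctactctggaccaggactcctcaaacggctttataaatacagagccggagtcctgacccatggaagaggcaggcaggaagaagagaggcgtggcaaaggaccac
Psmb10 (chr8:105938445-105938594, minus strand): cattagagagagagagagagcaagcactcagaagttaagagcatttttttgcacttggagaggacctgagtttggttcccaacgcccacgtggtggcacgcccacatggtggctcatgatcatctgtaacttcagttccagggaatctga

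Psmb5 and Psmb6 both hold the core within 47 bases of the RefSeq start. Their log2 differences were 0.68 and -0.11 over all libraries, and -0.07 for each gene within population C. Any part of the motif in these levels was not tested.

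The alpha ring gates the entrance of the barrel. Its 7 genes summed to 1239, 901 and 913 FPKM across the oxidized libraries, against 951, 981 and 1028 FPKM across the reduced libraries. Oxidized A was the highest library, and oxidized B and C were the lowest. Within populations 6 of the 7 genes were higher in oxidized cells in A, 1 in B and 0 in C. Psma6, the most abundant, had 343, 243 and 200.1 FPKM across the oxidized libraries, against 211, 225 and 243 FPKM across the reduced libraries (log2 difference 0.18, adjusted p = 0.676). Psma4, the least abundant, had 113, 81.0 and 66.5 FPKM across the oxidized libraries, against 74.1, 90.2 and 77.9 FPKM across the reduced libraries (log2 difference 0.08, adjusted p = 0.868). The estimates of the 7 alpha genes lay between -0.11 and 0.18. Although each subunit is present in equal number in the assembled ring, Psma6 stood 2.91 times above Psma4 in mean FPKM, and among the beta ring genes Psmb6 stood 8.51 times above Psmb7.

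The base of the regulatory particle holds a ring of 6 ATPases that unfold substrates, and 5 of the 6 had negative differences. The exception was Psmc3, at 0.11. Psmc6 had 58.0, 41.5 and 54.9 FPKM across the oxidized libraries, against 61.6, 93.9 and 62.0 FPKM across the reduced libraries. Its groups did not overlap, although reduced B stood far above the rest (log2 difference -0.47, adjusted p = 0.274). Within populations the log2 difference of Psmc6 was -0.08 in A, -1.16 in B and -0.17 in C. Psmc5, the most abundant ATPase, averaged 249.9 ± 26.0 FPKM among oxidized and 266 ± 12.7 FPKM among reduced cells, and Psmc2, the least abundant, 53.4 ± 5.67 and 58.2 ± 0.646 FPKM (SD, n = 3 each). Psmc1 and Psmc4 differed by -0.07 and -0.17, and the groups of Psmc1 to Psmc5 overlapped. Summed over the ring, the level was 801, 673 and 723 FPKM across the oxidized libraries, against 801, 783 and 795 FPKM across the reduced libraries.

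Of the other base subunits, the scaffold gene Psmd2 had 107, 111 and 84.7 FPKM across the oxidized libraries, against 87.1, 93.4 and 75.4 FPKM across the reduced libraries. It was higher in the oxidized library of every population, by 0.29, 0.25 and 0.17 on the log2 scale, but the groups overlapped (adjusted p = 0.472). Psmd4, a ubiquitin receptor, had overlapping groups and a log2 difference of 0.10. The other scaffold gene, Psmd1, was the least abundant of the 3, at 51.7 ± 1.25 FPKM among oxidized and 55.8 ± 4.85 FPKM among reduced cells (SD, n = 3 each).

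The lid, which carries the enzyme that removes ubiquitin from substrates, held members with differences on both sides. Psmd3 had 74.7, 92.5 and 58.3 FPKM across the oxidized libraries, against 50.7, 41.2 and 58.7 FPKM across the reduced libraries. As with Psmb5, oxidized A and B were the highest libraries and oxidized C lay within the reduced range (log2 difference 0.56, adjusted p = 0.202). The log2 difference of Psmd3 was 0.73 without oxidized C (adjusted p = 0.0543) and 0.23 without oxidized A and B. Psmd12 was at 105, 91.7 and 105 FPKM across the oxidized libraries, against 125, 141 and 114 FPKM across the reduced libraries, without overlap (log2 difference -0.32, adjusted p = 0.2999). Psmd11 had 48.7, 35.9 and 46.8 FPKM across the oxidized libraries, against 49.7, 49.9 and 52.9 FPKM across the reduced libraries, also without overlap (log2 difference -0.22, adjusted p = 0.477). Psmd7, the most abundant lid gene, was the steadiest of those named, at 210 to 227 FPKM among oxidized and 223 to 230.3 FPKM among reduced libraries. The groups of Psmd6, Psmd8 and Psmd13 overlapped, with log2 differences of -0.09, 0.10 and -0.01. Psmd14, the deubiquitinating enzyme itself, was at 61.1 to 84.7 FPKM among oxidized and 76.1 to 90.7 FPKM among reduced libraries.

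**Figure D4:**
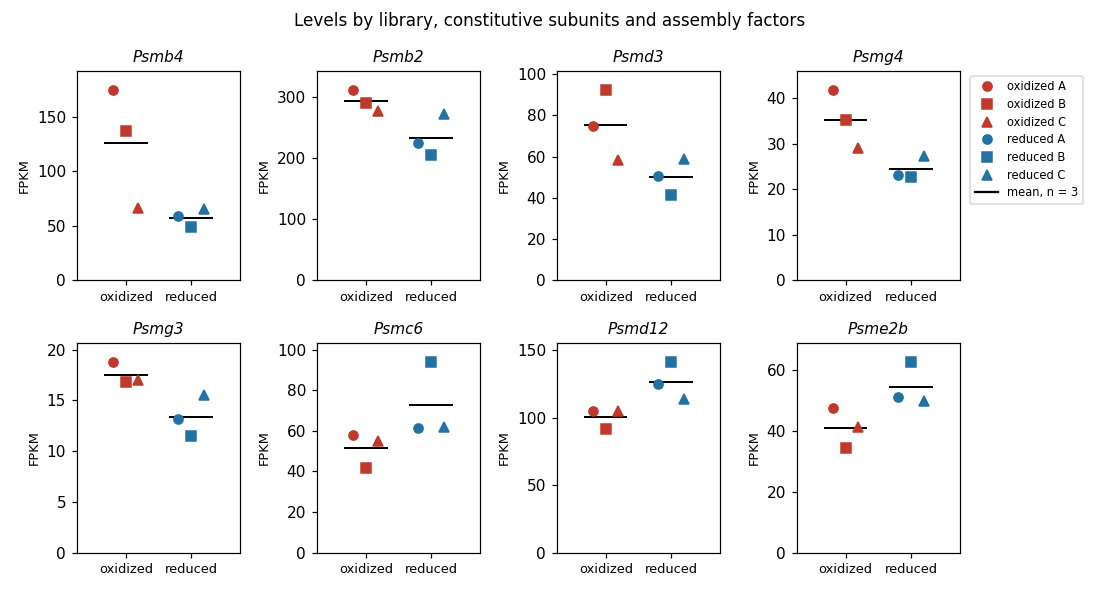
FPKM by library of 8 genes of the beta ring, lid, base, activators and assembly factors, with group means as bars and each axis starting at 0. Psmb4, Psmd3 and Psmg4 are highest in oxidized A and B, and Psmc6, Psmd12 and Psme2b lie lower in all 3 oxidized libraries.

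The activators open the core particle in place of the regulatory particle. Psme1 and Psme2 code for the partner subunits of the interferon-inducible activator. Psme2 had 78.8, 67.1 and 74.9 FPKM across the oxidized libraries, against 83.6, 89.9 and 91.1 FPKM across the reduced libraries, without overlap (log2 difference -0.26, adjusted p = 0.360). Psme1, which lies 5911 bases from Psme2 on chromosome 14, had 61.4, 46.2 and 37.8 FPKM across the oxidized libraries, against 47.9, 48.5 and 53.6 FPKM across the reduced libraries, and did not follow it (log2 difference -0.07, adjusted p = 0.868). Psme2b, a copy of Psme2 on chromosome 11, was at 47.5, 34.5 and 41.2 FPKM across the oxidized libraries, against 51.2, 62.6 and 49.7 FPKM across the reduced libraries (log2 difference -0.41, adjusted p = 0.252). Psme2 shares 28.3% of its stretches with other genes and Psme2b 69.3%, mainly with each other, so how fragments were split between them is uncertain.

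Psme3, the nuclear activator, was at 73.0, 81.3 and 59.4 FPKM across the oxidized libraries, against 76.4, 83.9 and 67.7 FPKM across the reduced libraries (log2 difference -0.10, adjusted p = 0.781). Psme4, a large activator linked to histone degradation in sperm, was at 7.48 to 11.4 FPKM among oxidized and 7.43 to 10.5 FPKM among reduced libraries. Psmf1, an inhibitor of the core particle in the test tube, had the difference nearest to 0 of the 49 genes, at 12.7 ± 0.967 FPKM among oxidized and 12.6 ± 0.710 FPKM among reduced cells (SD, n = 3 each, 95% interval of the log2 difference -0.33 to 0.33).

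The assembly factors chaperone the rings before the complex closes. Psmg1 and Psmg2 act as a pair on the alpha ring, and so do Psmg3 and Psmg4. Psmg4 had 41.8, 35.1 and 29.0 FPKM across the oxidized libraries, against 23.2, 22.6 and 27.3 FPKM across the reduced libraries, without overlap (log2 difference 0.51, SE 0.18, adjusted p = 0.180). Psmg3 had 18.8, 16.8 and 17.01 FPKM across the oxidized libraries, against 13.2, 11.5 and 15.5 FPKM across the reduced libraries, also without overlap (log2 difference 0.37, SE 0.16, adjusted p = 0.250). Psmg3 and Psmg4 were thus higher in the oxidized library of every population, although neither passed the test. The other pair did not show this. Psmg1 had 90.4, 73.2 and 75.5 FPKM across the oxidized libraries, against 77.4, 67.5 and 88.0 FPKM across the reduced libraries, and Psmg2 had 71.6, 56.0 and 55.9 FPKM across the oxidized libraries, against 63.9, 75.9 and 65.7 FPKM across the reduced libraries. Their log2 differences were 0.04 and -0.17.

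Psmd5, Psmd9 and Psmd10 are chaperones of the base. Psmd5 was at 16.3 to 22.1 FPKM among oxidized and 15.8 to 25.1 FPKM among reduced libraries, Psmd10 at 29.7 to 36.2 and 30.6 to 38.1 FPKM, and Psmd9, the least abundant, at 7.39 to 10.5 and 7.14 to 8.17 FPKM. All 3 overlapped between groups. Pomp, which completes the beta ring and is not among the 50 genes, was at 30.5, 22.3 and 17.2 FPKM across the oxidized libraries, against 18.7, 21.0 and 21.4 FPKM across the reduced libraries (log2 difference 0.15, adjusted p = 0.713).

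Psma8, the alpha subunit of the proteasome of spermatocytes, was low. It had 2.88, 1.505 and 0.680 FPKM across the oxidized libraries, against 3.76, 4.34 and 1.45 FPKM across the reduced libraries. It was lower in the oxidized library of every population, and the groups overlapped because population C was low in both (log2 difference -0.64, SE 0.37, adjusted p = 0.362, and 0.184 with the population as a block). The spermatocyte and germ cell markers read were Sycp3, Sycp1, Ddx4, Dazl, Stra8 and Tex11. All 6 were above 0, but Sycp1 and Stra8 stayed under 1 FPKM in every library. The markers summed to 10.01 to 21.6 FPKM among oxidized and 25.2 to 51.5 FPKM among reduced libraries, most of it Sycp3. Of the 6, Sycp3, Ddx4 and Tex11 were lower in all oxidized libraries without overlap, a pattern held by 8.81% of all genes tested. Tex11 was at 0.116 to 0.417 FPKM among oxidized and 0.702 to 1.75 FPKM among reduced libraries. It averaged under 1 FPKM and was not tested. Sycp1, Dazl and Stra8 overlapped between groups. Ddx4 was called by limma, with a log2 difference of -1.06 (adjusted p = 0.0466), but not with the population as a block (adjusted p = 0.0782). Whether germ cells were present, and any part of them in the level of Psma8, was not tested. The thymus subunit Psmb11 was listed at 0 in 5 libraries and at 0.0184 FPKM in reduced B, and was the 1 gene not tested. Psmc3ip, the recombination protein gene, was at 27.3, 30.0 and 26.9 FPKM across the oxidized libraries, against 25.5, 18.3 and 27.8 FPKM across the reduced libraries (log2 difference 0.25, adjusted p = 0.480).

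Across the 49 genes, which share libraries and are not independent, the oxidized minus reduced differences of populations A and B correlated at r = 0.73, where all 12191 genes gave 0.51. The same correlation was 0.26 between A and C and 0.41 between B and C, where all genes gave 0.22 and 0.26. The difference had the same sign in all 3 populations for 21 of the 49 genes, or 42.9%, against 43.3% of all genes. Of these 21, 7 were positive and 14 negative. In population C only 10 of the 49 differences were positive, against 50% of all genes, while in population A 33 were, against 58.2% of all genes, and in B 19, against 60.3%. All 50 genes together made up 1.51%, 1.34% and 1.21% of the summed FPKM of oxidized A, B and C, against 1.27% in each reduced library. That sum includes the rows named CT010467. They held 1798 and 2357 FPKM in oxidized A and B, against 41528 to 52117 FPKM in oxidized C and the reduced libraries. The shares therefore depend on this locus, and shares without it were not computed.

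**Figure D5:**
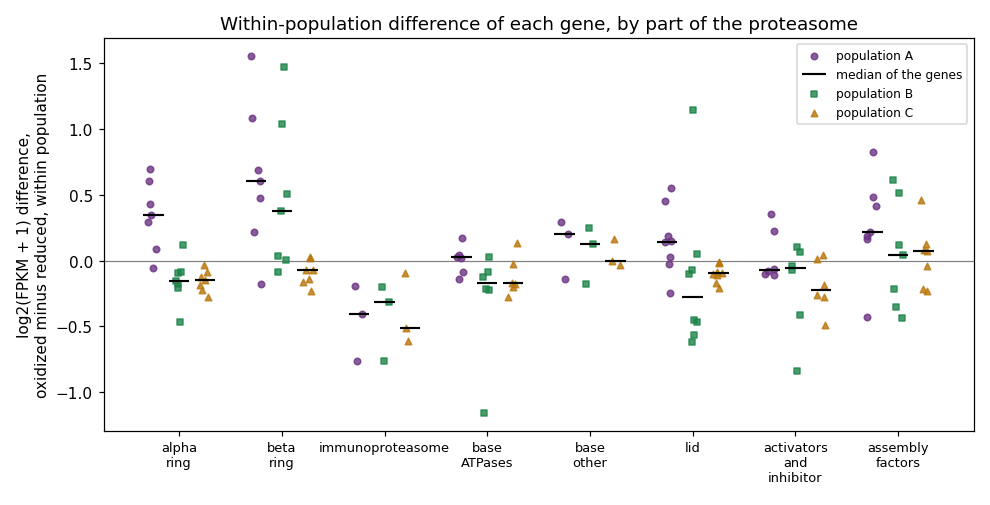
Difference of each tested gene within each population on the log2(FPKM + 1) scale, oxidized minus reduced, grouped by part of the proteasome, with the median of the genes as a bar. The inducible subunits lie below 0 in all 3 populations, with medians of -0.40, -0.32 and -0.51, while the beta ring lies above 0 in A and B and near 0 in C.

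Genes that work with the proteasome were read out of the same fit, from 4 lists of 69 genes in all, of which 61 were tested and limma called 0, with an unadjusted p under 0.05 for 8 higher and 3 lower, where all genes gave 13.5% and 5.93%. Without oxidized C, 7.25% of all genes were called higher and 2.47% lower. In that fit 8 of the 61 were called higher, namely Ubqln4, Vcp, Syvn1, Usp5, Uchl1, B2m, Calr and Pdia3, and Ubqln2 was called lower. Without oxidized A and B together 0 were called. Of the partners of the regulatory particle and shuttle factors, 17 were tested, 11 with positive differences, and the median was 0.08. Sem1, a small subunit of the lid, had 75.2, 60.1 and 61.1 FPKM across the oxidized libraries, against 40.6, 36.9 and 55.5 FPKM across the reduced libraries, without overlap (log2 difference 0.57, adjusted p = 0.170). Adrm1, a ubiquitin receptor, was at 47.7 ± 4.11 FPKM among oxidized and 45.3 ± 3.99 FPKM among reduced cells (SD, n = 3 each), and 25.7% of its stretches occur in other genes. The ubiquilin gene Ubqln4, a shuttle factor, had a log2 difference of 0.55 (adjusted p = 0.292). It was 0.82 without oxidized C (adjusted p = 0.0452) and 0.016 without oxidized A and B.

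Of the regulators of proteasome genes and of NFE2L1 processing, 18 were tested, with a median of -0.02. Nfe2l1 had 2.11, 18.3 and 11.5 FPKM across the oxidized libraries, against 13.7, 12.4 and 10.8 FPKM across the reduced libraries. Oxidized A was far below the other 5 libraries and oxidized B above them (log2 difference -0.54, SE 0.56, adjusted p = 0.615). Nfe2l2 was at 19.2 ± 2.32 FPKM among oxidized and 21.1 ± 0.655 FPKM among reduced cells, and Ddi2, the protease that cuts NFE2L1, at 4.44 ± 1.11 and 5.26 ± 0.172 FPKM (SD, n = 3 each). Ddi2 shares 17.9% of its stretches, mainly with an overlapping gene. Vcp, the ATPase that extracts ubiquitylated proteins from membranes and complexes, had 137, 157 and 109.7 FPKM across the oxidized libraries, against 91.6, 103 and 86.0 FPKM across the reduced libraries, without overlap (log2 difference 0.51, adjusted p = 0.181). For Vcp the difference was 0.65 without oxidized C (adjusted p = 0.04905) and 0.23 without oxidized A and B, and 40.5% of its stretches occur in other genes, mainly Vcp-rs. Syvn1, the ubiquitin ligase of the endoplasmic reticulum, had 5.67, 9.02 and 5.12 FPKM across the oxidized libraries, against 3.80, 2.53 and 3.94 FPKM across the reduced libraries, also without overlap (log2 difference 0.76, adjusted p = 0.144). For Syvn1 it was 0.90 without oxidized C (adjusted p = 0.0434) and 0.48 without oxidized A and B.

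Of the ubiquitin genes and ubiquitin enzymes, 14 were tested, with a median of -0.11. Ubb, which codes for polyubiquitin, had 1130.1, 990.1 and 1298 FPKM across the oxidized libraries, against 1531, 1261 and 1534 FPKM across the reduced libraries (log2 difference -0.34, adjusted p = 0.360). It was lower in the oxidized library of every population, and oxidized C lay above reduced B. Ubb shares 48.05% of its stretches, mainly with Ubb-ps, which averaged 455 FPKM. The deubiquitinating enzyme gene Usp5 had 58.1, 68.3 and 37.1 FPKM across the oxidized libraries, against 35.9, 34.1 and 35.1 FPKM across the reduced libraries (log2 difference 0.58, adjusted p = 0.206). For Usp5 it was 0.83 without oxidized C (adjusted p = 0.0175) and 0.0825 without oxidized A and B (adjusted p = 0.8997). Uchl3, another such enzyme, had a log2 difference of -0.38 (adjusted p = 0.301).

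Of the genes of antigen processing, in which the inducible subunits act, 12 were tested, 4 with positive differences, and the median was -0.07. Without overlap between groups, 2 of these 12 genes were lower in oxidized cells, Tapbp and Irf1, where 8.81% of all genes were. Only 1 was higher, B2m, where 16.2% of all genes were. Irf1 had 22.8, 22.5 and 13.7 FPKM across the oxidized libraries, against 31.5, 27.1 and 24.4 FPKM across the reduced libraries. The log2 difference of Irf1 was -0.50 (adjusted p = 0.256). The groups of Tap2 overlapped (log2 difference -0.33, adjusted p = 0.316). Tapbp and B2m, the 2 with the smallest p, went opposite ways. Tapbp, which links the peptide transporter to MHC class I, had 17.4, 16.1 and 10.8 FPKM across the oxidized libraries, against 20.2, 25.1 and 26.1 FPKM across the reduced libraries, without overlap (log2 difference -0.67, adjusted p = 0.144). B2m, the light chain of MHC class I, had 87.5, 61.2 and 45.6 FPKM across the oxidized libraries, against 32.4, 39.5 and 43.4 FPKM across the reduced libraries, also without overlap (log2 difference 0.70, adjusted p = 0.174). For B2m it was 0.92 without oxidized C (adjusted p = 0.0285) and 0.25 without oxidized A and B, so its size rested on oxidized A and B. Calr had the largest difference of the list. Its level was 305, 296 and 59.8 FPKM across the oxidized libraries, against 61.6, 62.4 and 59.3 FPKM across the reduced libraries. The log2 difference of Calr was 1.51 (adjusted p = 0.1855), with 2.28 without oxidized C (adjusted p = 0.000179) and -0.03 without oxidized A and B.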

How the data were processed

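The authors deposited 1 table with an FPKM value per gene and library, a fold (ratio of group means), its log2, a p-value, a q-value, a direction and a mark of significance, per the file headers; the header does not name their test. Of tools, the submitters' processing notes list edgeR, StringTie, HISAT2, FastQC and cutadapt, with neither versions nor roles, and mm10 as the build. Since FPKM is not a count, count models were not used; depth was estimated from the most frequent step of FPKM times transcript length among low genes. Genes averaging 1 FPKM or more were fitted on log2(FPKM + 1) with limma 3.58.1 in R 4.3.3 (group alone, eBayes with trend), with Benjamini-Hochberg adjustment over all genes tested. The fit was tested on simulated data, with noise drawn independently for each gene and library. The simulation held no shift shared by oxidized A and B, so it cannot show how the fit handles one. The log2 scale with a pseudocount of 1 understates differences of low genes.

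The design text names the populations, so the column letter was taken to pair the libraries. Deviations from group means correlated at r = -0.06, 0.07 and 0.20 within A, B and C. Between unlike letters r ran from -0.17 (oxidized B with reduced C) to 0.13 (oxidized A with reduced B). The values within A and B lay inside that range, so the pairing of A and B rests on the letters alone. The population block changed no call of a proteasome or pathway gene, but the marker Ddx4 was no longer called with it. Alternatives were the block, 2 scalings, no filter, an average of 5 FPKM or more, no trend, a pseudocount of 0.1 and leaving out each library; leaving out oxidized A and B together was added after seeing the data. The genes, lists and tests were chosen with earlier results of these data known. The interferon motifs and the Gm3375, Gm13835, CT010467, mt-Co3, Psmb2, Psmd12, Psmd14, Ddx4, Pou5f1, Nanog, Irf1, Tap2 and Calr values were chosen after values were seen.

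Named genes were the 3 largest differences each way, the catalytic, activator, assembly, ATPase and tissue-specific genes, the most and least abundant of each part, and set pathway genes with the 2 smallest p of each list. Of the genes this rule takes, 1 is not reported here. Positions, overlaps and shared 50-base stretches come from GENCODE vM21 (GRCm38); 12 of the 50 genes overlap an exon of another gene in the table.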

Additional observations from a re-analysis of the deposited data

How the results depend on the processing

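Of all genes, 63 were called higher and 34 lower. Median-ratio scaling gave 58 and 50 and quantile normalization 54 and 51. With the replicate block (population) 2 higher and 2 lower genes were called, and no proteasome gene. With no filter on low values the counts were 1 and 0, with a mean of 5 FPKM or more 48 and 21, and without oxidized A and B together 3 and 1. Without 1 library they ran from 1 to 884 higher and from 2 to 301 lower, the highest without oxidized C. Proteasome genes called ran from 0 to 2 higher and 0 to 1 lower, and pathway genes from 0 to 8 higher and 0 to 1 lower, above 0 only without oxidized C. Positive proteasome differences numbered 14 without oxidized A and B together, against 22 of 49.

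Positive proteasome differences also numbered 16 with median-ratio scaling and 17 with quantile normalization. Of the 50 named genes alone, signs that turned belonged to uncalled log2 differences, and the cause was not tested. With median-ratio scaling these were Psma4 (-0.0177), Psmf1 (-0.0857), Psmg1 (-0.0531) and Adrm1 (-0.0175), and with quantile normalization Psmf1 (-0.11) and Psmg1 (-0.0377). Without oxidized A and B together these were Psma4 (-0.27), Psma6 (-0.17), Psmb6 (0.18), Psmb7 (-0.0319), Psmd10 (0.0804), Psmd2 (-0.0039), Psmd5 (0.0912), Psme4 (-0.19), Psmg1 (-0.0311), Adrm1 (-0.0468), Ddi2 (0.0992) and Pomp (-0.23). Leaving out 1 library in turn gave ranges across 0 for Psma4 (-0.13 to 0.25), Psma6 (-0.0326 to 0.35), Psmb6 (-0.27 to 0.0295), Psmd10 (-0.11 to 0.0546), Psmd5 (-0.24 to 0.0721), Psme1 (-0.25 to 0.0916), Psme3 (-0.198 to 0.0254), Psme4 (-0.0064 to 0.27), Psmf1 (-0.0533 to 0.0469), Psmg1 (-0.0556 to 0.13), Nfe2l1 (-1.09 to 0.23) and Pomp (-0.0499 to 0.34).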
